A study of Homo sapiens with 2 samples.

Results

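Hashtag pairs 1+2, 1+3, 1+4 and 1+6 held 1337 of the 6114 OVCAR5 cells that could be given a hashtag pair in 1 pooled droplet experiment. A hashtag is a barcoded antibody that marks the cells of a culture before pooling, and these cells carried hashtags in combinations of a pair. Cells were kept with at least 500 detected genes and at most 20% mitochondrial UMIs (unique molecular identifiers, each counting 1 captured transcript), which left 7201 of 7804 barcodes. A pair was the highest and second highest of 8 hashtags, kept where the second held at least 5 times the third plus 1. Pairs 1+3, 1+4 and 1+6 were chosen by their summed IRF1 (high) and CD74 (low), and pair 1+2 is the pair they are set against, so their levels of all genes are given as a description with no test. The groups held 340 cells in pair 1+2, 321 in pair 1+3, 372 in pair 1+4 and 304 in pair 1+6.

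OVCAR5 is an ovarian carcinoma line, and every cell here came from a CFP-positive derivative with a reporter of interferon-gamma sensing. The labels list 18 culture conditions for the pool, namely no cytokine or interferon-gamma at doses of 1, 10 and 100 ng/ml, each with 2, 6, 12 and 24 h of exposure, and 2 conditions at 24 h marked frozen. All were grown in the same serum-containing medium and pooled before a transcript library and a matching hashtag library were made. The hashtag map was not at hand, so no dose, time or freezing state is given for any pair. Each pair is a set of cells from the same pool without a replicate, the sources used here do not say whether the reporter line is 1 clone, and every interval covers counting error only.

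Interferon-gamma binds a receptor of IFNGR1 and IFNGR2 chains, whose kinases JAK1 and JAK2 relay the signal. It reaches the nucleus at the gamma-activated sequence, GAS, of early genes such as the transcription factor IRF1. IRF1 and related factors bind the interferon-stimulated response element, ISRE, of further genes, and CIITA, made in response, drives the MHC class II genes and their chaperone CD74. CCN2 is a matricellular protein and a well known target of YAP and TEAD.

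Depth and cell quality were close among the 4 pairs. Summed UMIs ran from 9015397 in pair 1+6 to 10860434 in pair 1+4. The median cell held 27824.5 to 29037 UMIs in the 4 pairs and 29020 to 32945 in the other 14 pairs, and the median mitochondrial share was 11.6 to 11.9% in the 4 pairs. In the median cell of each of the 4 pairs the highest hashtag held 51.4 to 63.3% of hashtag UMIs, the second 33.8 to 45.7% and the third 0.824 to 1.15%. Gene and hashtag UMIs stood in the same matrix for all 7804 barcodes. The cells carried the keratins of an epithelial line, with KRT18 at 3227, 3229, 3167 and 3287 UMIs per 1000000 UMIs of the pair (CPM) in pairs 1+2, 1+3, 1+4 and 1+6. EPCAM was at 61.4, 63.1, 70.4 and 66.1 CPM in the same order. The ovarian markers were low, with PAX8 at 2.99 to 3.99 CPM and MUC16 at 0 to 0.666 CPM. T cell, B cell, endothelial and fibroblast marker lists summed to at most 1.67 CPM in any of the 4 pairs, with 6 of 8, 3 of 5, 4 of 6 and 5 of 7 of their genes at 0 UMIs. The myeloid list summed to 34.6 to 36.9 CPM, nearly all of it CD68 and CD14, with 2 of 8 genes at 0.

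IRF1, the factor that chose the pairs, was at 57.9 CPM in pair 1+2, and at 1322, 1349 and 1357 CPM in pairs 1+3, 1+4 and 1+6. Those 3 pairs were the highest of all 18 in IRF1, and pair 1+2 ranked 16 of 18. The other 14 pairs ran from 43.7 to 1058 CPM, with a median of 945. Summed over the 3 pairs, IRF1 was 23.2-fold higher than in pair 1+2 (exact 95% counting interval 21.3 to 25.3). CD74, the second choosing gene, was at 20.1 CPM in pair 1+2 and at 19.1, 21.6 and 23.1 CPM in pairs 1+3, 1+4 and 1+6. It ranged from 16 to 1278 CPM in the other 14 pairs, so all 4 pairs lay near the low end.

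CCN2 set the 4 pairs apart from the rest of the pool and not from each other. It was at 449 CPM in pair 1+2 and at 409, 392 and 420 CPM in pairs 1+3, 1+4 and 1+6, against 8.72 to 47.3 CPM in the other 14 pairs. The 3 pairs summed were at 0.904 of pair 1+2 (0.873 to 0.936). Of 9608 genes compared, 2 were at least 4-fold higher in each of the 4 pairs than in every other pair. They were CCN2 and DUSP8, a phosphatase of MAP kinases, at 8.65, 8.25, 6.08 and 7.43 CPM in the 4 pairs and at most 1.29 CPM elsewhere. Both reached the 200-UMI minimum, which is set over these 4 pairs, and a gene low in all 4 could miss it, so no count of lower genes is given.

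**Figure D1:**
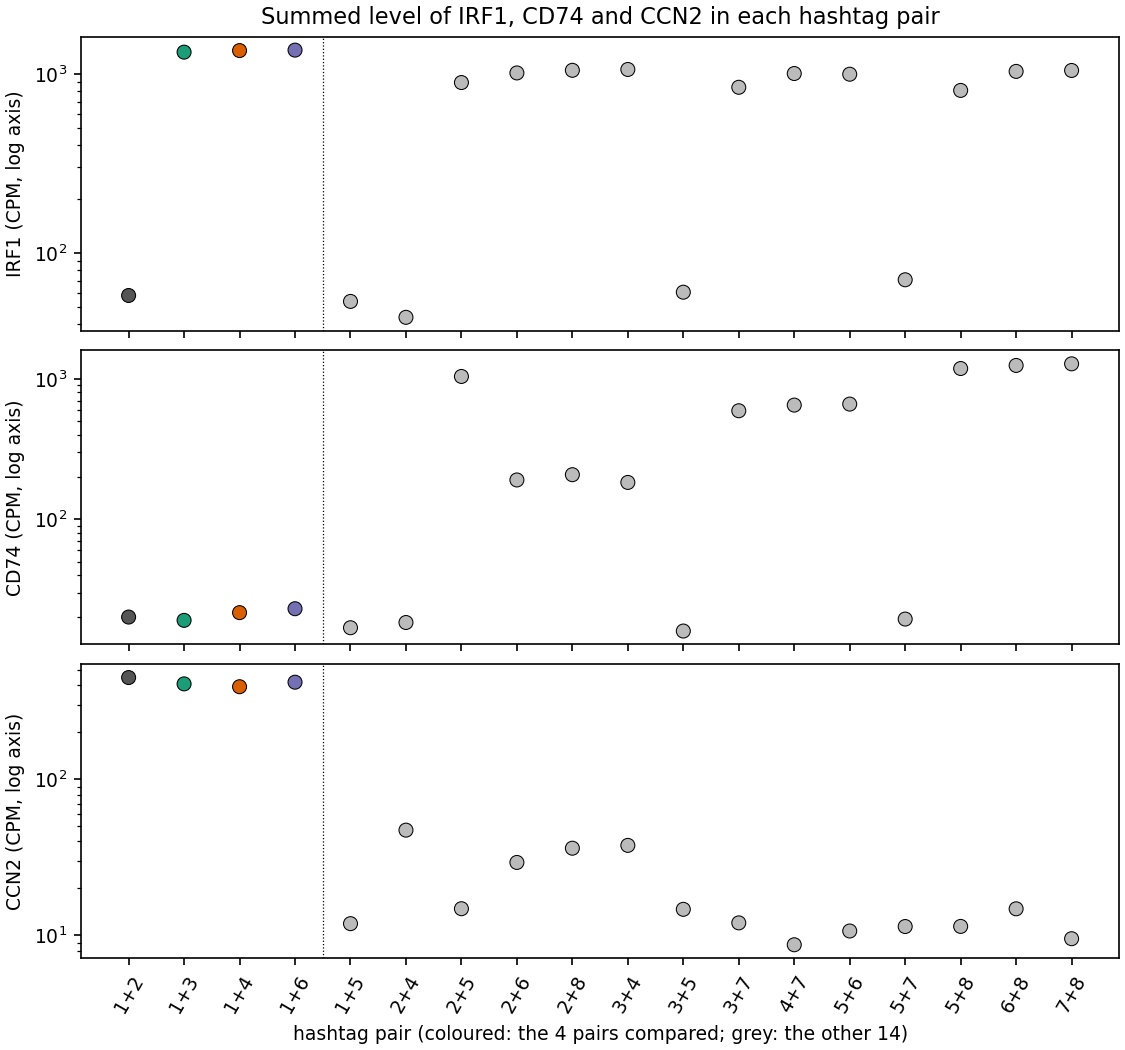
Summed level (CPM, log axis) of IRF1, CD74 and CCN2 in each of the 18 hashtag pairs, 1 point a pair, with the 4 pairs compared in colour at the left and the other 14 in grey. Pairs 1+3, 1+4 and 1+6 are the highest in IRF1 at 1322 to 1357 CPM while pair 1+2 is at 57.9 CPM, and all 4 are low in CD74 and at 392 to 449 CPM in CCN2.

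Beyond IRF1, the 3 pairs differed from pair 1+2 in a small set of genes, most of them higher. Genes with at least 200 UMIs over the 4 pairs were compared, 9608 of the 22433 detected, and a gene was called where its CPM was at least 2-fold higher or lower. Pair 1+3 had 69 genes higher (0.718% of those compared) and 8 lower (0.0833%). Pair 1+4 had 75 higher (0.781%) and 4 lower (0.0416%), and pair 1+6 had 76 higher (0.791%) and 2 lower (0.0208%). All 3 comparisons use the same pair 1+2, whose counting error therefore enters each of them. In all 3 pairs 60 genes were higher (0.624%) and 1 was lower in all 3 (0.0104%). The median log2 fold over all genes compared was -0.01, -0.01 and 0.00 in pairs 1+3, 1+4 and 1+6. Among the 60 genes, 16 were at least 4-fold higher in all 3 pairs, and 5 were at least 8-fold higher, namely IRF1, CIITA, BATF2, IRF8 and SOCS1. Of the 60 genes, 39 belonged to a gene list used below and 21 to none. A gene low in pair 1+2 could reach the minimum through the 3 pairs alone, so the counts of list members below describe those with enough UMIs and support nothing further.

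**Figure D2:**
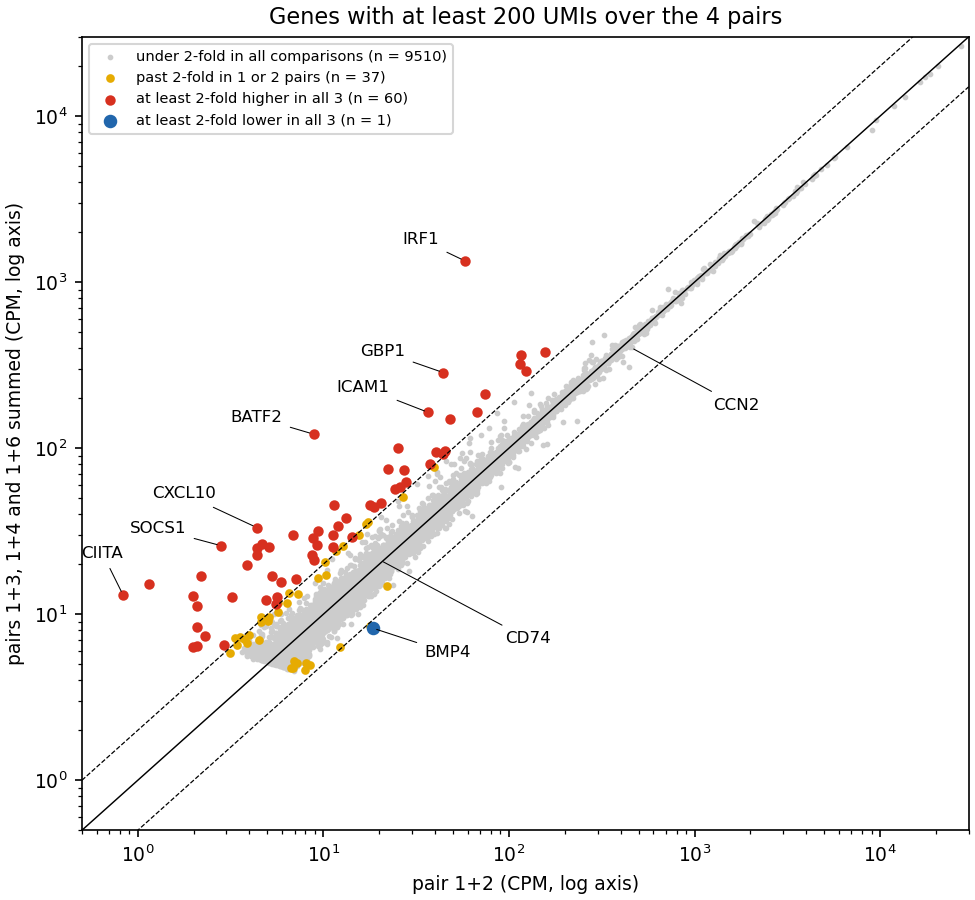
CPM of each of the 9608 genes in pair 1+2 (x axis) and in pairs 1+3, 1+4 and 1+6 summed (y axis), both on log axes, with the line of equality solid and 2-fold lines dashed. Red points are the 60 genes higher in all 3 pairs, the blue point is BMP4, and CCN2 and CD74 lie near the line of equality.

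The promoters of several of these genes hold letters that match the binding sequences named above. They are printed because the choice of pairs used no sequence. RefSeq promoters (GRCh38.p14, 250 bases before to 50 after the start, written 5′ to 3′ on the gene's strand) are shown, and capitals mark the match. GAS was searched as TTCNNNGAA and the ISRE core as GAAA, any 2 bases, GAAA, where N is any base, and the TEAD core as GGAATG, each on both strands. For IRF1 and ICAM1, the gene of largest fold and an adhesion molecule, the capitals mark GAS.
IRF1, chr5:132490724-132491023, minus strand: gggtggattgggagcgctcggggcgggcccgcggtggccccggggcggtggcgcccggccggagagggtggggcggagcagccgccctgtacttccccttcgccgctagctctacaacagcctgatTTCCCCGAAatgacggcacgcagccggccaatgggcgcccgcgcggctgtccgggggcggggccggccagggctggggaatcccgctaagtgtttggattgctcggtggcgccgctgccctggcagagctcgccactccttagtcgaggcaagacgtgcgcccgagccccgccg
ICAM1, chr19:10270870-10271169, plus strand: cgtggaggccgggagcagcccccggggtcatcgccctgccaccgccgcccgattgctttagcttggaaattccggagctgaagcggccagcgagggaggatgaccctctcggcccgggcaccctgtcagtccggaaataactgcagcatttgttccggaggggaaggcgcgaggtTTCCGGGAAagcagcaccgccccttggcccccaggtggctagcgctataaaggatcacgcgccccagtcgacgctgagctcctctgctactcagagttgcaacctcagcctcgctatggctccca
For GBP1, SOCS1 and CXCL10, an effector, a feedback inhibitor and a chemokine, the capitals mark the ISRE core, which in GBP1 reads on the opposite strand.
GBP1, chr1:89065159-89065458, minus strand: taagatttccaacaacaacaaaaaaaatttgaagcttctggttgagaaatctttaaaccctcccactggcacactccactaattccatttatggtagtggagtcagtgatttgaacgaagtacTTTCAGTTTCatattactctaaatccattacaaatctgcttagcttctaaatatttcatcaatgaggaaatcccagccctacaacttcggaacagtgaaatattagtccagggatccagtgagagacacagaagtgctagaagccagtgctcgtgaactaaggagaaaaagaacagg
SOCS1, chr16:11256155-11256454, minus strand: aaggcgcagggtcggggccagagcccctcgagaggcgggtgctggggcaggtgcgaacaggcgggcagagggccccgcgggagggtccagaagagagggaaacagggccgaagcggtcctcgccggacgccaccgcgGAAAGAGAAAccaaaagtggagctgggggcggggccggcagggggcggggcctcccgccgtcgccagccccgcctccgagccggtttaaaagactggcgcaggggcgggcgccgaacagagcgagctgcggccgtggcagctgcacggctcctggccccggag
CXCL10, chr4:76023448-76023747, minus strand: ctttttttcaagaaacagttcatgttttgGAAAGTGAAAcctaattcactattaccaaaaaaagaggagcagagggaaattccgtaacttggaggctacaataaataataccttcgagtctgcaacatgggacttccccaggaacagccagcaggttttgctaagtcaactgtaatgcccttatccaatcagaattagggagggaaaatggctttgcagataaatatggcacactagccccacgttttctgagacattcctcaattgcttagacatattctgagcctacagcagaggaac
The CXCL10 promoter also has a TEAD core match on the opposite strand, CATTCC at position 4 from the start, left in lower case. The CCN2 promoter is shown for contrast, with 3 matches to the TEAD core in capitals.
CCN2, chr6:131951323-131951622, minus strand: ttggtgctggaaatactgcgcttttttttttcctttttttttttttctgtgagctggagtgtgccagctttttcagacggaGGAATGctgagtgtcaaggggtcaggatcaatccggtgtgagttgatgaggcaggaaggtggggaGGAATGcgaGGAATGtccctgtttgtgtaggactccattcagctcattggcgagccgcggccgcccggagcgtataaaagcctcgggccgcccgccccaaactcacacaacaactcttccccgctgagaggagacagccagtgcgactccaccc

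Counted from the start site at 0, the GAS match begins at -124 in IRF1 and at -75 in ICAM1. The ISRE core match begins at -127 in GBP1, -113 in SOCS1 and -221 in CXCL10. A promoter entry was found for 48 of the 60 genes. GAS letters were in 15 of the 48 (31.3%), in 8.48% of the 7927 compared genes with an entry, and in 7.66% of all 35116 promoters of this length. ISRE core letters were in 21 of the 48 (43.8%), in 4.13% of the compared genes with an entry, and in 3.57% of all promoters. At least 1 of these motifs was present in 29 of the 48 genes (60.4%) against 11.9% of the compared genes with an entry, both were present in 7, the matches overlapped in 1, and 19 had neither. The TEAD core was in 10 of the 48 (20.8%), in 14.7% of the compared genes with an entry and in 14% of all promoters. The shares of genes count a match in any promoter of a gene, whereas the shares of all promoters count each promoter. Counted by promoter, GAS, ISRE core and TEAD core letters were in 22.1, 32.4 and 16.2% of the 68 promoters of the 48 genes. In the 11554 promoters of the compared genes they were in 6.21, 3.06 and 11.3%. A match is a description of letters in this window, with no statement on binding.

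Summed, the genes for interferon receptors and kinases were at 1.01, 1.03 and 1.06 times their level in pair 1+2 in pairs 1+3, 1+4 and 1+6. Many downstream transcription factors were higher in the 3 pairs. Of these 7 genes, 0 were called in any comparison. Over all genes compared 0.718 to 0.791% were higher in a pair, so a list this short would be expected to hold few calls or none. Their median log2 folds were 0.07, 0.05 and 0.22, against -0.01, -0.01 and 0.00 over all genes compared. JAK1 was at 73.8 CPM in pair 1+2 and at 68.0, 70.4 and 74.0 CPM in pairs 1+3, 1+4 and 1+6. The receptor chain IFNGR2 was at 55.4 CPM and at 53.0, 56.2 and 52.0 CPM. Of 17 interferon transcription factors 15 were compared, and 9 were higher in all 3 pairs (among them IRF1, IRF8, IRF9, BATF2, ETV7, CIITA, NLRC5 and SP110), with median log2 folds of 1.17, 1.15 and 1.19. STAT2 passed 2-fold in pair 1+6, at 2.08-fold, with 1.83-fold and 1.66-fold in pairs 1+3 and 1+4.

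BATF2, a basic leucine zipper factor, was at 8.86 CPM in pair 1+2 and at 128, 117 and 120 CPM in pairs 1+3, 1+4 and 1+6, or 13.7-fold higher when summed (11 to 17.2). The 3 pairs lay close together and far above pair 1+2. IRF8, a factor best known from myeloid cells, was at 1.15 CPM and at 16.5, 14.7 and 14.3 CPM, or 13.2-fold higher (7.33 to 26.7). CIITA was at 0.834 CPM, from 8 UMIs, and at 11.9, 14.1 and 13.1 CPM, or 15.6-fold higher (7.86 to 36.5). With each cell thinned to 10000 UMIs the folds of IRF8 and CIITA were 23.6 and 7.27. They rest on few counts, since only 2 and 6 thinned cells of pair 1+2 had a UMI of these genes. NLRC5, the MHC class I transactivator, was at 1.98 CPM and at 14.2, 12.3 and 12.2 CPM, or 6.52-fold higher (4.12 to 10.9). ETV7, a repressor of the ETS family, was at 2.19 CPM and at 17.4, 16.3 and 17.4 CPM. PRDM1, the repressor BLIMP1, was at 2.09 CPM and at 11.1, 10.1 and 12.6 CPM. For ETV7 and PRDM1 the summed folds were 7.77 and 5.38.

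Feedback inhibitors of cytokine signalling made up 2 of the 60 genes, of 8 negative regulators compared and 10 in the list. SOCS1, which blocks JAK kinases, was at 2.82 CPM in pair 1+2 and at 26.1, 27.3 and 24.0 CPM in pairs 1+3, 1+4 and 1+6, or 9.19-fold higher (6.26 to 14.03). SOCS3, which acts mainly on receptors of the IL-6 family, was at 8.86 CPM and at 20.4, 22.9 and 19.97 CPM, or 2.39-fold higher (1.90 to 3.04). The list's median log2 folds were 0.14, 0.08 and 0.15, near the median of all genes.

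Antigen presentation was split, with a few peptide-loading genes called and most class I genes not, while most class II genes had too few UMIs to compare. Of 20 genes for MHC class I and peptide loading, 3 were higher in all 3 pairs, namely TAP1, ERAP2 and HLA-E, and the median log2 folds were 0.24, 0.24 and 0.20. TAP1, a subunit of the peptide transporter, was at 25.1 CPM in pair 1+2 and at 98.5, 96.1 and 106 CPM in pairs 1+3, 1+4 and 1+6, or 3.98-fold higher (3.49 to 4.56). HLA-E, a non-classical class I molecule, was at 67.5 CPM and at 160, 162 and 176 CPM, or 2.45-fold higher (2.26 to 2.67). ERAP2, a peptide-trimming enzyme, was at 5.32 CPM and at 16, 18 and 16.9 CPM. B2M and PSMB9, the class I light chain and an immunoproteasome subunit, were looked up after their values were seen. B2M was at 2088 CPM and at 2289, 2347 and 2334 CPM, and PSMB9 at 107 CPM and at 190, 189 and 190 CPM, or 1.78-fold higher (1.66 to 1.90). Of 15 class II genes 3 had enough UMIs, namely CD74, which the choice of the pairs used, IFI30 and HLA-DMA. HLA-DMA, a chain of a class II peptide editor, was at 11.4 CPM in pair 1+2 and at 12.9, 12.5 and 11.5 CPM in pairs 1+3, 1+4 and 1+6. IFI30, a lysosomal thiol reductase of the class II route, was at 25.4 CPM and at 37.6, 34.3 and 37.9 CPM. HLA-DRA, also looked up after its value was seen, was at 3.44 CPM and at 3.09, 5.06 and 3.33 CPM, against up to 254 CPM in the other 14 pairs.

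Guanylate-binding proteins, large GTPases of cell-autonomous defence, were higher in the 3 pairs. Of 7 in the list 4 had enough UMIs (GBP1, GBP2, GBP3 and GBP4), and these 4 were higher in all 3 pairs, with median log2 folds of 1.80, 1.88 and 1.91. GBP1 was at 44.3 CPM in pair 1+2 and at 284, 283 and 288 CPM in pairs 1+3, 1+4 and 1+6, or 6.43-fold higher (5.84 to 7.11). The 3 pairs differed from each other in GBP1 by at most 1.02-fold. GBP4 was at 11.4 CPM and at 43.6, 45.1 and 47.1 CPM, or 3.98-fold higher (3.27 to 4.88). GBP2 and GBP3 were 3.33-fold and 2.70-fold higher.

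Of 16 genes for chemokines and related cytokines 7 were compared, and 4 were higher in all 3 pairs (CXCL2, CXCL10, CXCL11 and the cytokine IL32), with median log2 folds of 1.39, 1.35 and 1.25. CXCL10, a ligand of CXCR3, a receptor of activated T cells, was at 4.38 CPM in pair 1+2 and at 37.9, 33.1 and 28.5 CPM in pairs 1+3, 1+4 and 1+6, or 7.60-fold higher (5.58 to 10.6). CXCL2, a neutrophil attractant, was at 5.94 CPM and at 15.3, 15.1 and 16.9 CPM. IL32 was at 8.65 CPM and at 22.7, 25.9 and 19.2 CPM, or 2.63-fold higher (2.09 to 3.35) and 4.38-fold in thinned cells. CCL2, a monocyte attractant, was called in pairs 1+3 and 1+4 and not in pair 1+6, at 11.7 CPM and at 27.1, 25.1 and 18.9 CPM. CXCL9, a further CXCR3 ligand looked up after its values were seen, was below the minimum with 6 UMIs in pair 1+2 and 33, 65 and 31 UMIs in pairs 1+3, 1+4 and 1+6.

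Genes of immune checkpoints and tryptophan use numbered 11, of which 6 were compared and 2, CD274 and WARS, were higher in all 3 pairs. CD274, the checkpoint ligand PD-L1, was at 5.11 CPM in pair 1+2 and at 26.4, 22.6 and 27.4 CPM in pairs 1+3, 1+4 and 1+6, or 4.95-fold higher (3.70 to 6.75). In thinned cells it was 9.0-fold higher, with a CD274 UMI in only 9 thinned cells of pair 1+2. WARS, the tryptophanyl-tRNA synthetase, was at 48.2 CPM and at 152, 147 and 153 CPM, or 3.12-fold higher (2.84 to 3.45). IDO1, the enzyme that starts tryptophan breakdown, was not called. It was looked up after its values were seen, at 36.5 CPM and at 59.9, 72.3 and 72.0 CPM, or 1.87-fold higher (1.67 to 2.1). A single cell of pair 1+2 held 124 of that pair's 350 IDO1 UMIs, and without the cell richest in IDO1 of each pair the fold was 2.80 (2.44 to 3.23). ICAM1, an adhesion molecule and 1 of 12 NF-kB targets compared, was the member of that list higher in all 3 pairs. It was at 36.8 CPM and at 164, 163 and 166 CPM, or 4.46-fold higher (4.0 to 4.98).

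Antiviral effectors were partly higher. Of 42 in the list 38 were compared, and 10 were higher in all 3 pairs (IFIT3, IFIT5, XAF1, CMPK2, PARP9, PARP14, DTX3L, TRIM21, APOL2 and APOL6), and the median log2 folds were 0.45, 0.37 and 0.65. APOL6, an apolipoprotein L family member, was at 116 CPM in pair 1+2 and at 368, 353 and 368 CPM in pairs 1+3, 1+4 and 1+6, or 3.13-fold higher (2.94 to 3.33). PARP14, a mono-ADP-ribosyltransferase, was at 74.7 CPM and at 210, 203 and 226 CPM, or 2.84-fold higher (2.63 to 3.07). IFIT3 was at 123 CPM and at 287, 277 and 310 CPM, or 2.37-fold higher (2.23 to 2.52). Each pair held a few cells very rich in antiviral transcripts, and without the 5% richest cells of each pair IFIT3 was 5.26-fold higher. HERC5, an ISG15 ligase, was lower in pair 1+3 at 0.461-fold, with 0.677-fold and 0.907-fold in pairs 1+4 and 1+6. None of 15 cell death genes was called in any comparison (0 of 15), where 0.718 to 0.791% of all genes compared were higher in a pair. A list this short would be expected to hold few calls or none. Their median log2 folds were 0.22, 0.26 and 0.29, against -0.01, -0.01 and 0.00 over all genes compared. Summed, the list was 1.20-fold higher (1.17 to 1.24), with CASP4 at 90.1 CPM and at 125, 115 and 123 CPM.

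Of 15 immediate early genes compared, 4 were among the 60, and the list's median log2 folds were -0.13, 0.00 and 0.05. KLF6, a zinc finger factor, was at 45.4 CPM in pair 1+2 and at 96.8, 99.3 and 93.6 CPM in pairs 1+3, 1+4 and 1+6. KLF4, a relative of KLF6, was at 24.4 CPM and at 55.0, 57.7 and 56.6 CPM. ATF3, a stress-responsive factor, was at 7.09 CPM and at 18.4, 14.7 and 15.97 CPM, and ZFP36, which promotes mRNA decay, at 2.92 CPM and at 6.08, 7.09 and 6.21 CPM. The summed folds of KLF6, KLF4, ATF3 and ZFP36 were 2.13, 2.32, 2.30 and 2.22.

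The remaining genes of largest fold were of mixed function. SECTM1, a secreted and transmembrane ligand, was at 4.38 CPM in pair 1+2 and at 22.9, 24.3 and 28.5 CPM in pairs 1+3, 1+4 and 1+6. HAPLN3, a hyaluronan link protein, was at 4.38 CPM and at 22.8, 23.8 and 21.7 CPM. Their summed folds were 5.74 and 5.22, and those of the non-coding transcripts AC022034.1 and MMP25-AS1 were 5.67 and 5.14.

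BMP4, a secreted ligand of the TGF-beta superfamily, was the only gene lower in all 3 pairs. It was at 18.5 CPM in pair 1+2 and at 8.35, 7.46 and 9.10 CPM in pairs 1+3, 1+4 and 1+6, or 0.447-fold (0.367 to 0.546). The other 14 pairs ran from 3.22 to 10.6 CPM, so pair 1+2 was the highest of all 18 and the 3 pairs lay among the rest.

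Of the 60 genes, 21 were in no list, and the lists of other pathways below held few calls, where the share over all genes (0.624%) would give less than 1 call in each. No gene was called in all 3 pairs among 17 YAP targets, 11 TGF-beta targets, 10 EGFR ligands and feedback genes, 18 cholesterol genes, 12 unfolded protein response genes, 11 heat shock and metallothionein genes, 11 hypoxia genes, 11 growth arrest genes, 5 Wnt and Notch targets or 5 aryl hydrocarbon receptor targets. In these lists the only call in any pair was EGLN3, an oxygen sensor, at 2.1-fold in pair 1+3. The EGFR list had median log2 folds of -0.20, -0.18 and -0.28, with the ligand AREG at 738 CPM in pair 1+2 and at 760, 707 and 696 CPM in pairs 1+3, 1+4 and 1+6. Below the 2-fold call, ID2, an inhibitor of helix-loop-helix factors, was at 441 CPM and at 318, 309 and 292 CPM, or 0.695-fold (0.670 to 0.721). DKK1, a secreted Wnt antagonist, was at 152 CPM and at 117, 97.7 and 97.8 CPM, or 0.685-fold (0.643 to 0.729). Among cell cycle genes 0 of 21 S phase and 0 of 19 G2/M genes were called. The G2/M list summed to 1.20, 1.09 and 1.14 times its level in pair 1+2, and the S phase list to 1.01, 0.891 and 1.03 times, and the part of cycling in other results was not tested. Epithelial (9), mesenchymal (4) and housekeeping (12) genes compared gave 0 calls.

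**Figure D3:**
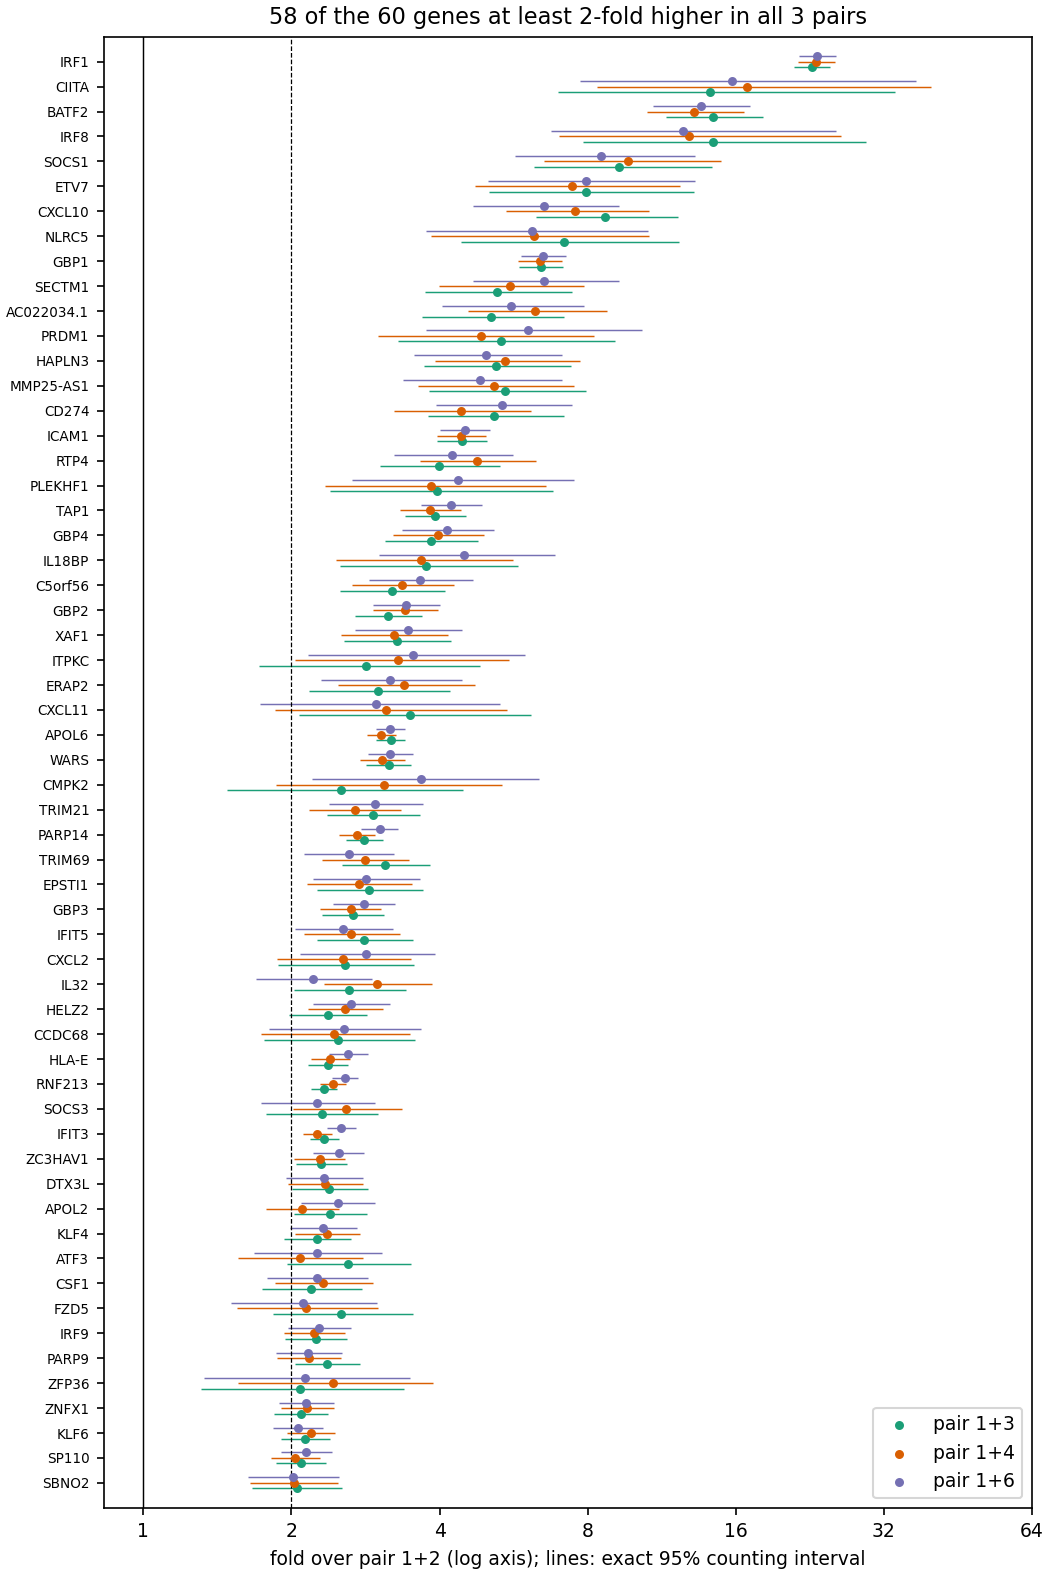
Fold over pair 1+2 (log axis) of 58 of the 60 genes in pairs 1+3, 1+4 and 1+6, with exact 95% counting intervals as lines, the solid line at equality and the dashed line at 2-fold. IRF1 is at the top near 23.2-fold, and the points of the 3 pairs lie close together in most genes.

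The 3 pairs resembled each other in the 60 genes about as much as over all genes compared. The highest over the lowest of the 3 pairs ran from 1.01-fold (SBNO2) to 1.46-fold (CMPK2), with a median of 1.11-fold, and the median over all genes compared was also 1.11-fold. Over all genes, 10 differed at least 2-fold among the 3 pairs (0.104%), and none of these was among the 60. CCL5, a chemokine, differed most, at 9.48, 2.58 and 8.21 CPM, and its UMIs came from 6, 7 and 9 cells of pairs 1+3, 1+4 and 1+6. Without the cell richest in CCL5 of each pair it was at 1.56, 1.57 and 3.79 CPM. KRT75, a keratin, was at 3.92, 11.5 and 7.88 CPM, and its UMIs came from 9, 10 and 11 cells of these pairs. RSAD2, the antiviral enzyme viperin, was at 11.9, 12.0 and 28.4 CPM. Without the 5% of cells richest in antiviral transcripts, RSAD2 differed by 1.34-fold in place of 2.40-fold. PHKG1, POLQ, KRBA2, FGFBP1, C5orf51 and C2CD2 differed by 2.03-fold (C2CD2) to 2.25-fold (PHKG1).

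The higher levels were spread over most cells for IRF1 and GBP1 and over few cells for CXCL10. In pair 1+2, 63.8% of cells had an IRF1 UMI, and in pairs 1+3, 1+4 and 1+6 it was 99.7, 98.9 and 99.7%. With each cell thinned to 10000 UMIs, which left out 19, 5, 12 and 9 shallower cells, the shares were 34.3% and 98.7, 99.7 and 99.3%. The exact 95% binomial intervals (Clopper-Pearson) of the thinned IRF1 shares were 29.1 to 39.7% in pair 1+2 and 96.8 to 99.99% over the 3 pairs. The median cell held 1 IRF1 UMI in pair 1+2 and 37, 38 and 39 UMIs in the 3 pairs. Per total UMIs, 99.4, 98.4 and 99% of cells of pairs 1+3, 1+4 and 1+6 lay above the 95th percentile of pair 1+2. Before thinning, 16.9% of the 361 barcodes under the gene minimum had an IRF1 UMI, at a median depth of 3599 UMIs, and whether these are empty droplets or damaged cells was not tested.

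GBP1 had a UMI in 53.5% of cells of pair 1+2 and in 92.8, 93.8 and 93.4% of the 3 pairs (thinned, 32.1% and 82.9, 85.6 and 83.1%), with 8.31% in barcodes under the gene minimum. The thinned GBP1 intervals were 27.01 to 37.5% in pair 1+2 and 78.3 to 89.02% over the 3 pairs. SOCS1 was found in 7.65% of cells of pair 1+2 and in 44.2, 42.5 and 39.8% of the 3 pairs (thinned, 2.80% and 22.5, 20.6 and 21.0%), with 1.11% in those barcodes. CIITA had a UMI in 2.06% of cells of pair 1+2 and in 25.9, 27.4 and 26.3% of the 3 pairs (thinned, 1.87% and 11.7, 12.8 and 11.5%), with 0.277% in those barcodes. CXCL10 had a UMI in 11.2% of cells of pair 1+2 and in 20.2, 18.8 and 17.1% of the 3 pairs (thinned, 4.05% and 12.0, 10.6 and 9.83%), with 4.43% in those barcodes. The thinned CXCL10 intervals were 2.17 to 6.83% in pair 1+2 and 6.68 to 16.1% over the 3 pairs, so they met at their edges in pair 1+6. In each of the 3 pairs the tenth of cells richest in CXCL10 held 91.1 to 91.8% of its UMIs. The richest CXCL10 cell held 2 UMIs in pair 1+2 and 60, 48 and 31 in pairs 1+3, 1+4 and 1+6. HLA-DRA was found in 8.53% of cells of pair 1+2 and in 8.41, 9.14 and 8.88% of the 3 pairs (thinned, 3.74% and 2.22, 4.17 and 4.07%), with 1.94% in those barcodes.

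A thinned cell of pair 1+2 had a median of 9 of the 60 genes detected, and 21 in each of the 3 pairs. Summed over the 60 genes, 95.02, 93.5 and 93.8% of cells of pairs 1+3, 1+4 and 1+6 were above the 95th percentile of pair 1+2. The other 16, 24 and 19 cells lay at or below it. Without IRF1 in the sum the shares were 84.1, 81.2 and 80.9%. The 60 genes were picked as higher in these same cells, so a shift toward the 3 pairs was fixed by that choice. These values describe only how the shift was spread over cells.

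**Figure D4:**
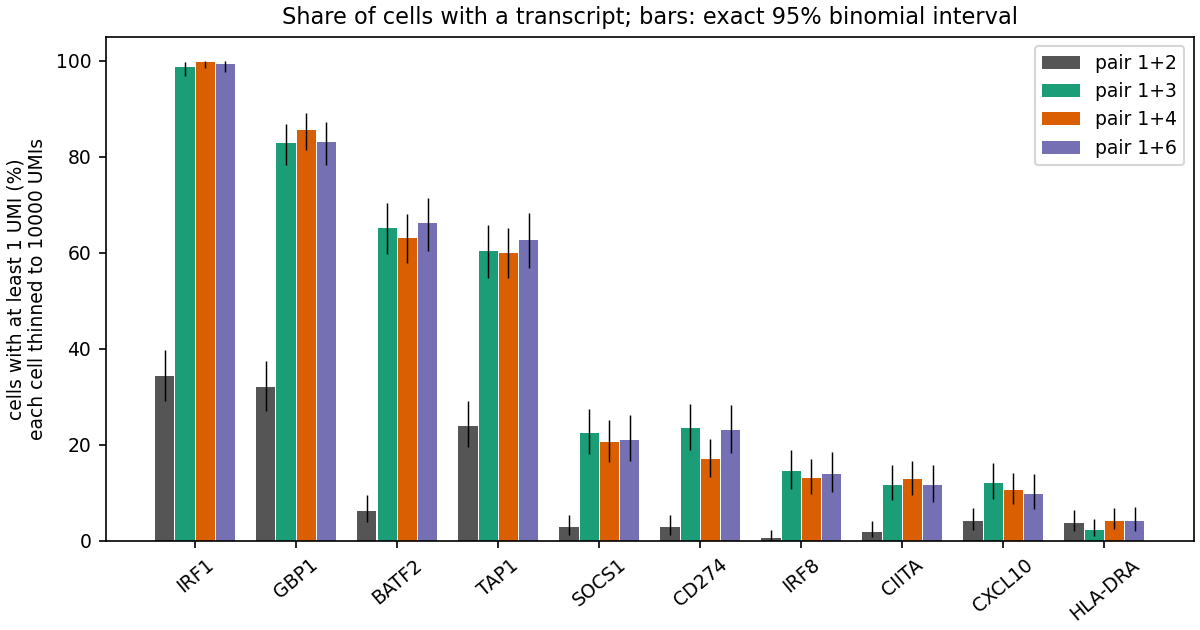
Share of cells with at least 1 UMI (y axis, percent) of 10 genes in each of the 4 pairs after thinning each cell to 10000 UMIs, with exact 95% binomial intervals as error bars. IRF1 is at 34.3% in pair 1+2 and at 98.7 to 99.7% in the 3 pairs, and HLA-DRA is at or below 4.17% in all 4 pairs.

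Against the other 14 pairs, the 60 genes fell into groups by where they were highest. For 9 genes the highest of all 18 pairs was pair 1+3, 1+4 or 1+6 (IRF1, PRDM1, ITPKC, CXCL2, ZC3HAV1, KLF4, ATF3, FZD5 and KLF6). In PRDM1 the margin lay within counting error, at 12.645 CPM in pair 1+6 and 12.591 CPM in the highest other pair. For 38 genes the same number of 10 other pairs were above all 4 pairs, and for 13 genes 1 to 9 other pairs were above. ATF3 reached at most 7.32 CPM in the other 14 pairs, below all of pairs 1+3, 1+4 and 1+6. WARS reached 1517 CPM elsewhere, GBP4 578 CPM and CXCL10 315 CPM, all far above pairs 1+3, 1+4 and 1+6. SOCS1 reached 83.6 CPM and BATF2 142 CPM. For lists as a whole, the summed guanylate-binding proteins were at 108 CPM in pair 1+2, at 478, 483 and 497 CPM in the 3 pairs, and at 44.9 to 1775 CPM elsewhere. The summed YAP targets were at 1992 CPM and at 1912, 1810 and 1887 CPM, above the 729 to 1248 CPM of all other pairs. This was not particular to YAP targets. The EGFR, cholesterol, TGF-beta, immediate early, aryl hydrocarbon receptor and epithelial lists were also higher in each of the 4 pairs than in every other pair. The EGFR list was at 1798 to 2041 CPM against at most 1466 CPM elsewhere. The S phase and heat shock lists were lower in each of the 4 pairs than in every other pair.

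**Figure D5:**
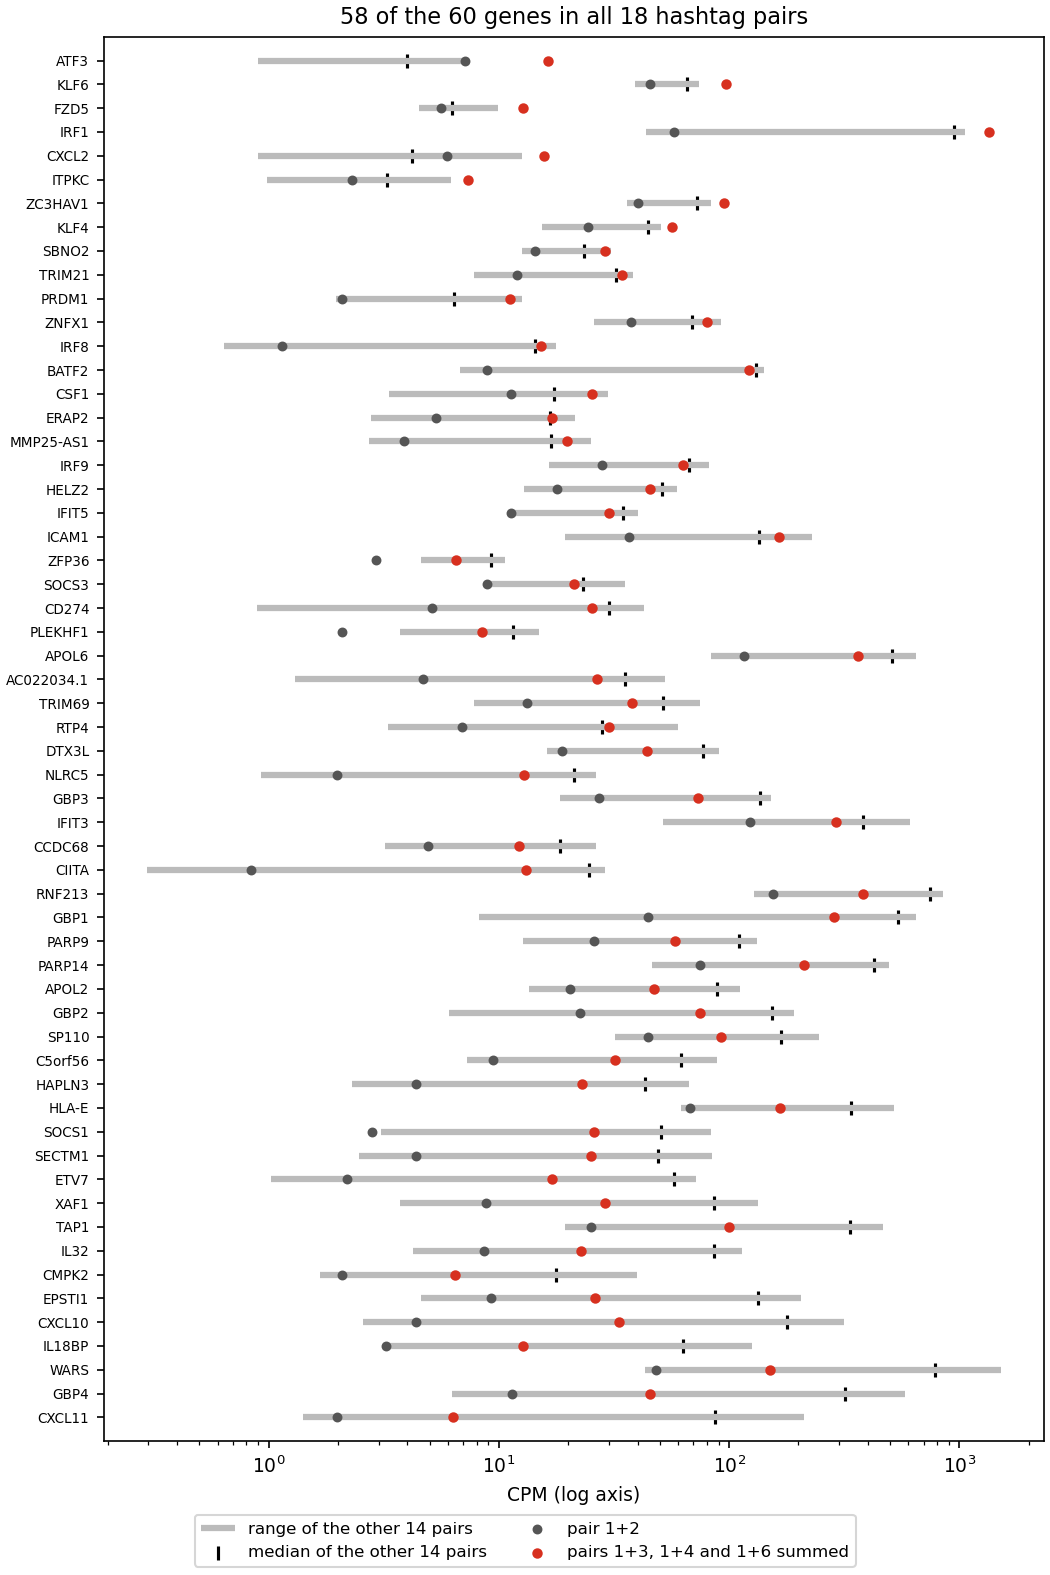
CPM (log axis) of 58 of the 60 genes in pair 1+2 (dark point), in pairs 1+3, 1+4 and 1+6 summed (red point) and over the other 14 pairs (grey bar from lowest to highest, tick at the median). Genes are ordered by the summed level over the highest other pair, so ATF3 and KLF6 at the top exceed every other pair, and CXCL11 and GBP4 at the bottom lie far below the highest.

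Some of the 60 genes lie side by side. On GENCODE 29 gene models (GRCh38), GBP3, GBP1, GBP2 and GBP4 follow each other on chromosome 1, IFIT3 and IFIT5 on chromosome 10, CXCL10 and CXCL11 on chromosome 4, and MMP25-AS1 and IL32 on chromosome 16, each with under 100 kb between neighbours. C5orf56 overlaps IRF1 by 7094 bases on the opposite strand of chromosome 5, and it was 3.39-fold higher (2.73 to 4.26). The sources used here do not say whether counting used strand. Whether any reads in the shared bases were counted for the wrong gene of the 2 was not tested. PARP9 and DTX3L overlap by 340 bases on chromosome 3. Families with similar members, such as the GBP, IFIT, APOL and HLA genes, may share reads, and their split is uncertain.

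The call at 2-fold divides a continuous range. Just inside it were, among others, SBNO2, SP110, KLF6 and ATF3, with lowest folds in any pair of 2.02, 2.04, 2.06 and 2.08. Just outside were PAEP, SAMHD1, FRMD4B, SHFL and AL353807.5, with lowest folds of 1.999, 1.96, 1.96, 1.89 and 1.89. Among the 60 genes, SBNO2, SP110 and PARP9 were below 2-fold when summed under at least 1 alternative, with a lowest value of 1.55 for SBNO2 in thinned cells.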

How the data were processed

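OVCAR5 cells were profiled as a 3' gene expression library and a hashtag library on the Chromium Controller, per the labels' protocols. Whole-number UMI counts for each gene or hashtag in each barcode were deposited, per the file headers, without normalisation. The software named in the header is Cell Ranger 5.0.1, whereas Cell Ranger 2.1.1 and GRCh38 appear in the submitters' processing notes, a conflict that was not resolved. No source at hand states how barcodes were called.

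Counts were summed over the cells of a pair and scaled to the pair's total as CPM, with exact Poisson intervals, exact conditional intervals of ratios and exact Clopper-Pearson intervals of shares, all at 95%. Pairs needed at least 100 cells, which gave 18 pairs. A fold is a ratio of CPM. The hashtag rule removes cells of several pairs, doublets within a pair stay hidden from it, and no doublet caller was run. Free RNA was not subtracted. No test was run, because the pool is 1 sample and the pairs were selected on IRF1 and CD74 in the same cells.

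Members and gene lists were chosen with earlier results of these data known. Named genes are IRF1, CCN2 and CD74, the 15 genes of largest and of smallest mean fold among those called in all 3 pairs, the 10 of largest span among the 3 pairs, and up to 4 called members per list (the 2 of highest level where none was called). A few genes that these rules name are not reported here, although counts and summed levels include them. Other names complete a count, a list or a threshold, and, with B2M, PSMB9, HLA-DRA, CXCL9 and IDO1, were added after their values were seen. Alternatives covered the cell filter, hashtag rule, scaling, thinning, cell weighting, removal of cells, UMI minimum and fold, and the removal of the richest cell per gene was added after seeing the data. Python 3.11.15, numpy 2.4.6, scipy 1.17.1 and pandas 2.3.3 were used, and the calculations were tested on simulated data.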

Additional observations from a re-analysis of the deposited data

Results flagged for a closer look

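Cells that the rules had left out also held more IRF1 in the 3 pairs than in pair 1+2, by different amounts. Cells with a readable pair that failed the gene or mitochondrial limit (16, 23, 20 and 12 cells in pairs 1+2, 1+3, 1+4 and 1+6) were 46.5 to 72.0% mitochondrial by UMIs. Scaled to non-mitochondrial UMIs, IRF1 was at 1360 CPM in the 3 pairs summed and at 54.7 in pair 1+2, from 2 UMIs there, a ratio of 24.9 (6.83 to 206). In cells whose second hashtag held 2 to 5 times the third plus 1 (13, 11, 11 and 13 cells), IRF1 was at 1056 CPM in the 3 pairs summed and at 222 in pair 1+2, or 4.75-fold (3.80 to 6.02), below the ratio in the cells compared. These loosely hashtagged cells were unlike those compared in other genes too. CD74 was at 149 CPM in the 3 pairs summed and at 10.98 in pair 1+2, or 13.5-fold (5.21 to 50.2), and CCN2 was 0.602-fold (0.501 to 0.726). Their median depth was 28390 UMIs in pair 1+2 and 44443, 48773 and 44570 UMIs in pairs 1+3, 1+4 and 1+6, and its part in these ratios was not tested. Both sets were flagged because a signal appeared, above the level in pair 1+2, in cells outside the main comparison. The first set also enters the alternative without a cell filter.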

How the results depend on the processing

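The number of genes called moved with the thresholds. With a minimum of 50 UMIs, 221, 232 and 247 genes were called in pairs 1+3, 1+4 and 1+6, 61.5, 72.8 and 66.8% of them higher, and 102 in all 3 (93 higher). With a minimum of 1000 UMIs the counts were 30, 33 and 32, and 29 in all 3. A threshold of 1.5-fold called 261, 252 and 245 genes, and 134 in all 3, and 3-fold called 29, 30 and 30, and 27 in all 3. Thinned cells gave 47 calls in pair 1+3 and 51 in pair 1+6, from fewer UMIs. Under the 9 alternatives that kept the minimum and the fold, 39 (thinned cells) to 60 of the 60 genes stayed higher in all 3 pairs.

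The count of 10 genes that differed at least 2-fold among the 3 pairs was least stable. It was 6 with the stricter cell filter, 3 with a hashtag ratio of 10, 4 in thinned cells, 25 as a mean over cells, and 5 without the cells richest in antiviral transcripts. It was 231 and 0 with minimums of 50 and 1000 UMIs, and 182 and 1 at 1.5-fold and 3-fold. IRF1 was 27.8-fold higher in thinned cells and 25.3-fold without the cells richest in antiviral transcripts, within a range of 22.5 to 27.8. Over 14 settings, 833 of 840 folds of the 60 genes were at least 2-fold. Of 1526 folds of 109 genes, 0 changed direction past the call and 61 moved beyond the counting interval. These settings include the main one and the changes of UMI minimum and fold threshold, under which a fold stays the same by construction. Both totals therefore hold repeats of the main value and overstate how stable the folds were. KRT75, found in only 7 cells of pair 1+2, was 3.57-fold higher without cells with a SERPINB3 UMI, against 1.33-fold. CMPK2, PLEKHF1 and POLQ moved over 1.5 times in thinned cells, to 4.69, 6.74 and 1.22.

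Genes under 200 UMIs, CXCL9 among them, were not compared, and no replicate of any pair exists here. No paired analysis was possible because the series holds 1 pool, and its samples are the gene expression and hashtag libraries of that pool.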
